A study of Mus musculus with 6 samples.

Results

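The 8 genes studied here mark splenic marginal zone B cells and were followed in total RNA of mouse splenocytes: Cd1d1, Cd9, Dtx1, S1pr3, Myof, Asb2, Tm6sf1 and Notch2. They were taken by symbol from the deposited count table, where all 8 of the listed symbols were found among 56413 in all, and all 8 were among the 18716 genes with enough counts to be tested. Fresh total splenocytes of wild-type mice (WT) were compared with those of Top3b-knockout mice (Top3b-KO), with 3 libraries per genotype, to ask how loss of topoisomerase III-beta bears on immune regulation and tumour formation. RNA was depleted of ribosomal RNA before sequencing. Strain, age and the kind of Top3b allele were not given in the sources used here, and no treatment or sorting is named for either genotype. The labels do not say whether each library came from a separate animal, so the p-values measure only the spread between these libraries.

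Marginal zone B cells lie at the border of the white and red pulp, where they meet antigens carried by the blood and respond quickly with IgM. They arise from immature B cells in which the receptor Notch2 is engaged by the ligand Dll1 on stromal cells of the spleen. Cutting of Notch2 by the protease ADAM10 and then by gamma-secretase frees its intracellular part, which binds RBPJ and mastermind-like proteins on DNA and turns on targets such as Dtx1. Sphingosine 1-phosphate receptors hold the cells at the marginal zone, and high CD1d, CD9 and CD21 distinguish them from follicular B cells.

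Total counts ranged from 15262060 to 15860287 in the WT libraries and from 9941014 to 25473404 in the Top3b-KO libraries, the lowest being Top3b-KO replicate 3. Top3b itself was at 91.0 ± 4.06 CPM (counts scaled for library size and composition) in WT libraries and 49.8 ± 1.66 CPM in knockout libraries (SD, n = 3), an edgeR log2 fold change of -0.87 with an adjusted p of 5.78e-06, so transcript was still counted in the knockout. The summed level of 8 pan-B markers (among them Ms4a1, Cd79a and Pax5) was 3472 to 4074 CPM in WT libraries and 3635 to 3810 CPM in knockout libraries, and that of 7 T cell markers was 901 to 996 and 989 to 1022 CPM. The 6 markers of stromal cells, which carry Notch ligands in the intact spleen, were near 0 and summed to 1.32 to 2.03 CPM in WT libraries and 1.23 to 1.52 CPM in knockout libraries. In whole splenocytes, fewer cells of a type and less RNA per cell cannot be told apart.

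None of the 8 marginal zone genes passed the test between genotypes. Of these, 6 had a log2 fold change below 0, as did 50.9% of all tested genes, and 2 had one above 0. The values ran from -0.13 for Asb2 to 0.079 for Notch2, and the median was -0.047, beside -0.0029 over all tested genes. By the quasi-likelihood test of edgeR, Benjamini-Hochberg adjusted over the whole table, 0 of the 8 were called, beside 0.0107% of all tested genes, with adjusted p between 0.944 and 0.992. At an unadjusted p under 0.05 the count was also 0 of 8 by edgeR, beside 5.52% of all genes, and 0 of 8 by DESeq2, beside 3.33% of all genes. For 0 of the 8 did the 3 libraries of one genotype lie apart from the 3 of the other, beside 11.0% of all genes. Of the separate 95% intervals of the ratio of Top3b-KO to WT, the lowest limit was 0.759 (Asb2) and the highest 1.17 (Notch2). Leaving out 1 library at a time left 3 to 7 of the 8 below 0 and moved the median to between -0.079 (without WT replicate 3) and 0.0070 (without WT replicate 1).

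**Figure D1:**
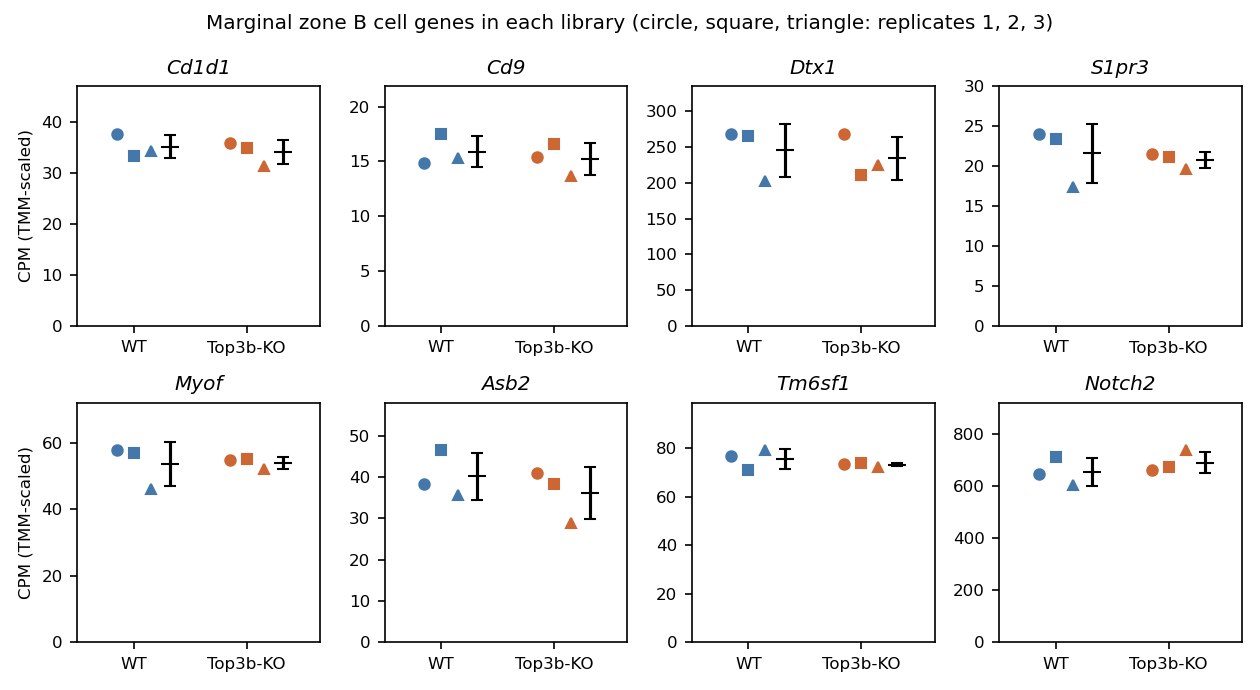
CPM of each marginal zone B cell gene in each library. Symbols are the 3 libraries of each genotype, black bars the mean and SD (n = 3), and every axis starts at 0. In all 8 panels the genotypes overlap, and WT replicate 3 (blue triangle) is the lowest library for Dtx1, S1pr3, Myof and Notch2.

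Notch2, the receptor that directs B cells to the marginal zone fate, was at 644, 711 and 603 CPM in the WT libraries and 661, 673 and 736 CPM in the Top3b-KO libraries. Top3b-KO replicate 3 was the highest and WT replicate 3 the lowest, and WT replicate 2 lay above both other knockout libraries. The means were 653 ± 54.3 CPM in WT libraries and 690 ± 40.4 CPM in knockout libraries (SD, n = 3). The log2 fold change was 0.079 (SE 0.073, adjusted p 0.944 by edgeR), with a ratio of 1.06 and a 95% interval of 0.950 to 1.17. Notch2 is not restricted to marginal zone cells, being also known in splenic dendritic cells and monocytes. The annotation places 2 short transcripts of unsettled coding status, Gm42819 and Gm42820, on the same strand within Notch2, at 31.2 and 9.82 CPM in WT. Of windows of 101 bases along the longest Notch2 transcript, 2.40% also occur in Gm42820.

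Dtx1 encodes Deltex1, a ubiquitin ligase that acts on the Notch pathway and is itself switched on by Notch. It was at 268, 265 and 202 CPM in WT libraries and 268, 210.2 and 224 CPM in knockout libraries. One library of each genotype reached 268 CPM, and the lowest value came from WT replicate 3, so the knockout values lay within the WT range. With means of 245 ± 37.2 and 234 ± 30.1 CPM (SD, n = 3), the log2 fold change was -0.065 (SE 0.119, adjusted p 0.972 by edgeR), a ratio between 0.795 and 1.15 by its 95% interval. Without WT replicate 3 it was -0.19 with an adjusted p of 0.402, the lowest adjusted p of any of the 8 genes under any setting tried, and it turned above 0 without Top3b-KO replicate 2 (0.015) or WT replicate 1 (0.0014).

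S1pr3 encodes a receptor for sphingosine 1-phosphate that is high on marginal zone B cells and takes part in holding them in place. It was at 24.0, 23.3 and 17.4 CPM in WT libraries and 21.5, 21.2 and 19.6 CPM in knockout libraries. All 3 knockout libraries lay between the lowest and the middle WT library. The log2 fold change was -0.048 (SE 0.115, adjusted p 0.977 by edgeR), with a 95% interval of 0.818 to 1.14 for the ratio. Its SD was 3.64 CPM in WT libraries and 1.01 CPM in knockout libraries, and the WT range of 6.62 CPM rests on replicate 3, the other WT libraries lying within 1 CPM of each other. The sign turned without WT replicate 1 (0.034) or WT replicate 2 (0.011).

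Myof encodes myoferlin, a calcium-binding membrane protein of the ferlin family known for membrane fusion and repair. Its levels were 57.7, 57.0 and 46.0 CPM in WT libraries and 54.7, 55.1 and 52.0 CPM in knockout libraries, again with WT replicate 3 lowest and the knockout libraries inside the WT range. The means were 53.6 ± 6.57 and 54.0 ± 1.70 CPM (SD, n = 3), and the log2 fold change was 0.014 (SE 0.087, adjusted p 0.992 by edgeR). Without WT replicate 3 the sign turned, to -0.086 with an adjusted p of 0.647.

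Dtx1, S1pr3 and Myof had WT replicate 1 as their highest library and WT replicate 3 as their lowest. Their upstream sequences are shown for that reason, each being the 250 bases before the RefSeq transcription start, and Cd9 is added as the member with a match to the RBPJ core. Capitals mark TGGGAA, the RBPJ core, or CAGCTG, an E-box of the kind bound by E proteins, searched on both strands.
Dtx1, GRCm38.p6 chr5:120711670-120711919, minus strand: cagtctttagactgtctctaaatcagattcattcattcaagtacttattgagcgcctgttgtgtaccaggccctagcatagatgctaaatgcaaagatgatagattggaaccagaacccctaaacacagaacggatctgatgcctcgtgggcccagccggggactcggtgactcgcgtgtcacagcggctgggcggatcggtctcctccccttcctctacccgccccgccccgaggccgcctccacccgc
S1pr3, GRCm38.p6 chr13:51408368-51408617, plus strand: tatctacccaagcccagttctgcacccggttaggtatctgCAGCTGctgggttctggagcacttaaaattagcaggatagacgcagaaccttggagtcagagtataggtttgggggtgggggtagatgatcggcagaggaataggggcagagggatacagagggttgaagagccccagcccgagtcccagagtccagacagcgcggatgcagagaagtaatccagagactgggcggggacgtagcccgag
Myof, GRCm38.p6 chr19:38043578-38043827, minus strand: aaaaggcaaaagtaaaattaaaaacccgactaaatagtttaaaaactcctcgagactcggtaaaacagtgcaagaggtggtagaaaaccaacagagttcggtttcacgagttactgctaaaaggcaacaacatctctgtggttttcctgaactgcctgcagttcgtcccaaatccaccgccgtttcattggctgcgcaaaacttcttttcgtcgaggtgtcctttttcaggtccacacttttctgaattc
Cd9, GRCm38.p6 chr6:125494761-125495010, minus strand: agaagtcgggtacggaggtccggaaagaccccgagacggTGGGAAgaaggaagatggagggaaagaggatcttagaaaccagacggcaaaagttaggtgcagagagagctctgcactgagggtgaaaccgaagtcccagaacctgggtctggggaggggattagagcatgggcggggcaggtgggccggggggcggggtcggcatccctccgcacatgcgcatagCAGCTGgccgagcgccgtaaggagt
The Dtx1 and Myof windows hold neither motif, S1pr3 holds 1 E-box centred 207 bases before the start, and Cd9 holds the RBPJ core 208 bases and an E-box 22 bases before it. Of 32536 distinct mouse promoter windows of the same length, 21.6% hold TGGGAA and 13.1% hold CAGCTG on either strand. Of the 6 members with a RefSeq entry, 1 held the RBPJ core and 2 held the E-box, and none held TATAAA, which 12.3% of all windows do. The Notch2 window was rich in CpG, with 34 CpG and 72.0% GC beside medians of 6 CpG and 52.4% GC over all windows, while the pair of Asb2 start windows had 3 and 5 CpG. A match is a stretch of letters and not a measured binding site.

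Cd1d1 encodes CD1d, the class I-like molecule that presents lipids to natural killer T cells. It was at 37.6, 33.4 and 34.3 CPM in WT libraries and 35.8, 34.9 and 31.4 CPM in knockout libraries. The highest library was WT replicate 1 and the lowest Top3b-KO replicate 3, with the other 4 libraries within 3 CPM of each other. The means were 35.1 ± 2.21 and 34.0 ± 2.34 CPM (SD, n = 3), with a log2 fold change of -0.038 (SE 0.087, adjusted p 0.977 by edgeR). Its 95% interval for the ratio was 0.859 to 1.10, and the sign turned without WT replicate 1 (0.013) or Top3b-KO replicate 3 (0.010).

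Cd1d1 has a close copy, Cd1d2, and part of its count depends on how reads matching both were assigned, a rule not given in the sources used here. In the longest annotated Cd1d1 transcript, of 1946 bases, 14.4% of windows of 101 bases also occur in Cd1d2. The longest identical run, 245 bases inside the coding sequence, is printed to show how long the stretch is in which a read of 101 bases cannot be placed. That length is given for 1 of the 2 sequencers the labels describe, and which of them read these libraries is not settled, so the window shares hold for that length only.
Cd1d1 and Cd1d2, shared coding run, GENCODE M21: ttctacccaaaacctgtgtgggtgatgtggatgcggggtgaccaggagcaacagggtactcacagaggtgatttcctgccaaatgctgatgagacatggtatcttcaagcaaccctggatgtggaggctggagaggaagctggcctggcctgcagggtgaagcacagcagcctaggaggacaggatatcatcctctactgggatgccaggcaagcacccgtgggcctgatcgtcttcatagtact
Cd1d2 itself was at 1.03 ± 0.208 CPM in WT libraries and 0.798 ± 0.451 CPM in knockout libraries (SD, n = 3), and per kilobase of transcript at 0.672 in WT beside 18.0 for Cd1d1. Its log2 fold change was -0.20 (SE 0.372, adjusted p 0.972 by edgeR).

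Cd9 encodes a tetraspanin, a membrane organiser present on marginal zone B cells, B-1 cells and plasma cells and also on platelets. It was at 14.9, 17.5 and 15.3 CPM in WT libraries and 15.4, 16.6 and 13.7 CPM in knockout libraries. The genotypes overlapped over most of their range, with WT replicate 2 highest and Top3b-KO replicate 3 lowest. The log2 fold change was -0.048 (SE 0.113, adjusted p 0.977 by edgeR), with a ratio between 0.820 and 1.14 by the 95% interval. It turned above 0 without WT replicate 2 (0.025) or Top3b-KO replicate 3 (0.010). The antisense gene Gm28809 overlaps Cd9 and was at 5.69 CPM in WT libraries and 5.45 CPM in knockout libraries. The strand setting of the counting was not given in the sources used here, so reads of that pair may not be told apart.

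Asb2 encodes the substrate-binding part of a cullin 5 ubiquitin ligase that targets filamins. It was at 38.3, 46.4 and 35.7 CPM in WT libraries and 41.1, 38.3 and 28.9 CPM in knockout libraries. Top3b-KO replicate 3 was lowest of all 6 and the other knockout libraries lay inside the WT range. Asb2 varied most among libraries, the highest being 1.60 times the lowest, and had the largest fold change of the 8 in size. The log2 fold change was -0.13 (SE 0.123, adjusted p 0.944 by edgeR), with a 95% interval of 0.759 to 1.09 for the ratio. Without Top3b-KO replicate 3 it was -0.016, and without Top3b-KO replicate 1 it was -0.23.

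Tm6sf1 encodes a multispanning membrane protein, the relative of the lipid-handling gene Tm6sf2. It was at 77.0, 71.2 and 79.2 CPM in WT libraries and 73.6, 73.9 and 72.5 CPM in knockout libraries. The knockout libraries agreed within 1.33 CPM and all lay inside the WT range of 7.97 CPM. The log2 fold change was -0.046 (SE 0.070, adjusted p 0.968 by edgeR), and the 95% interval of the ratio, 0.875 to 1.07, was the narrowest of the 8. In the annotation, 3 genes overlap Tm6sf1: Hdgfl3 on the opposite strand, at 28.8 CPM in WT, Gm45867 on the same strand, at 11.3 CPM, and Gm45014 on the opposite strand, at 2.04 CPM. Tm6sf2 was low, at 2.06 ± 0.175 CPM in WT libraries and 1.30 ± 0.251 CPM in knockout libraries (SD, n = 3). Its log2 fold change was -0.71 (SE 0.258, unadjusted p 0.013 and adjusted p 0.829 by edgeR). The genotypes did not overlap for it, as for 11.0% of all tested genes.

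**Figure D2:**
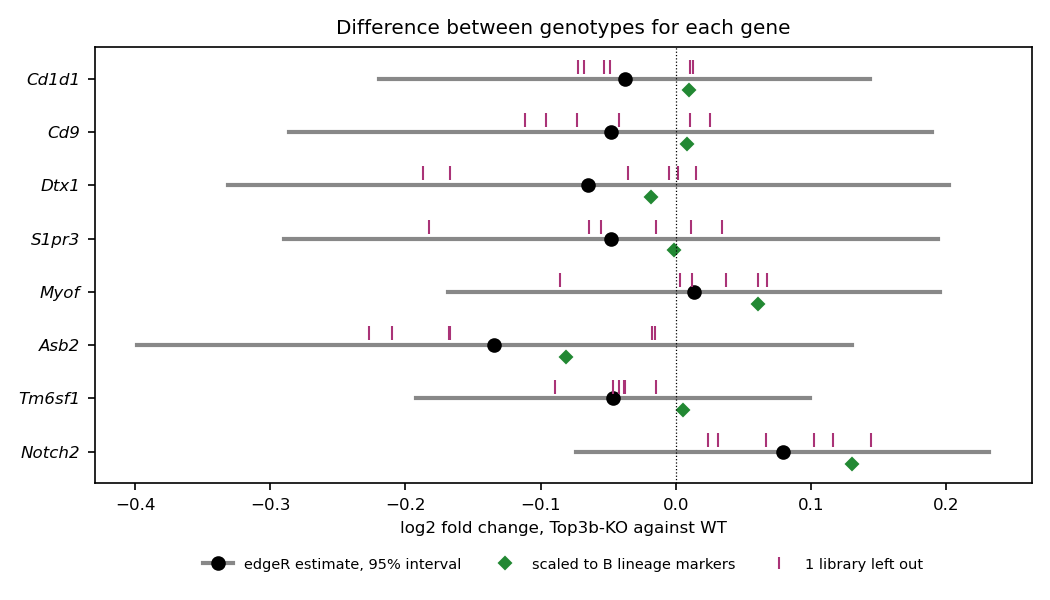
Log2 fold change of each gene, Top3b-KO against WT. Black points and grey lines are edgeR estimates with 95% intervals, purple ticks the estimates with 1 library left out, and green diamonds the estimates with libraries scaled to the summed B lineage markers; all 8 grey lines cross 0, and the ticks of Asb2, Tm6sf1 and Notch2 stay on one side.

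The difference between genotype means was smaller than the range of the 3 WT libraries for all 8 genes, between 3.33% of that range for Myof and 37.6% for Asb2. WT replicate 3 was the lowest of all 6 libraries for 4 genes and Top3b-KO replicate 3 for 3, while WT replicate 1 was the highest for 4. The WT range exceeded the Top3b-KO range for 5 genes. These counts were not made over all tested genes, so they describe the members and do not set them apart from other genes.

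Levels were compared between genes per kilobase of the longest annotated transcript. In WT, Notch2 was at 62.2 ± 5.17 and Dtx1 at 60.8 ± 9.21 CPM per kilobase (SD, n = 3), and their ranges overlapped. Then came Tm6sf1 at 22.2 ± 1.20, Cd1d1 at 18.0 ± 1.14, Asb2 at 14.9 ± 2.08 and Cd9 at 12.9 ± 1.15 CPM per kilobase, of which Cd1d1 and Asb2, and Asb2 and Cd9, overlapped. Myof, at 7.55 ± 0.926 CPM per kilobase, and S1pr3, at 4.84 ± 0.816, were lowest and stood apart from each other and from Cd9. The order of the 8 means was the same in Top3b-KO, where Notch2 and Dtx1, and Asb2 and Cd9, overlapped. For Tm6sf1 the longest transcript is one with a retained intron, and total RNA can hold intron reads, so these levels are approximate.

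**Figure D3:**
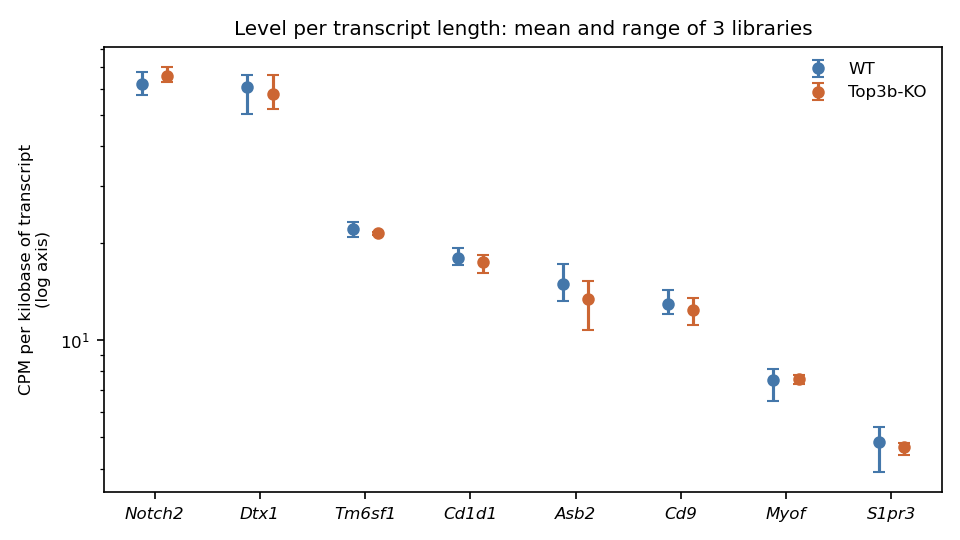
Level of each gene in CPM per kilobase of its longest transcript, on a log axis, ordered by the WT mean. Points are means and bars the range of 3 libraries; Notch2 was 12.9 times S1pr3 in WT libraries and 14.1 times in knockout libraries, and the order was the same in both.

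Set against the summed B lineage markers of the same library, the marginal zone genes also overlapped between genotypes. Dtx1 amounted to 7.72%, 6.51% and 4.98% of that sum in the WT libraries and 7.37%, 5.68% and 5.89% in Top3b-KO. Notch2 amounted to 18.6%, 17.4% and 14.8% in WT libraries and 18.2%, 18.2% and 19.3% in knockout libraries. WT replicate 3 was low by both measures, and WT replicate 1, which was highest for Dtx1, had the lowest B lineage sum of the 6 libraries. For Cd1d1 the share was 0.915 ± 0.145% in WT libraries and 0.917 ± 0.0838% in knockout libraries (SD, n = 3). For 5 of the 8 genes (Cd1d1, Dtx1, S1pr3, Myof and Tm6sf1) all 3 knockout shares lay inside the WT range, a count not made over all tested genes. With library sizes replaced by the B lineage sum, 3 genes instead of 6 had a log2 fold change below 0 and 0 of 8 were called by edgeR (adjusted p 0.998 or above). The median over all tested genes also rose under this scaling, from -0.0029 to 0.053, and that of the members from -0.047 to 0.0068. The turned signs thus go with a shift of all genes and do not set the members apart.

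Of 8 further marginal zone genes, 0 passed, 7 were below 0 and the median log2 fold change was -0.068. The farthest from 0 was Plac8, at -0.31 (SE 0.0999, adjusted p 0.762 by edgeR), beyond all 8 of the main set. Ighm, the IgM heavy chain, was at 2278 ± 332 CPM in WT libraries and 2086 ± 133 CPM in knockout libraries, and Cr2, which encodes CD21, at 502 ± 28.2 and 506 ± 27.1 CPM (SD, n = 3). Of 6 follicular B cell genes, some also used by T cells, 0 passed and the median was -0.049, the farthest from 0 being Klf2 at -0.27 (SE 0.083, adjusted p 0.67 by edgeR). Of these, Ighd, the IgD heavy chain, was at 422 ± 66.8 and 419 ± 42.6 CPM. Fcer2a, which encodes CD23 and is high on follicular and low on marginal zone B cells, was at 319 ± 29.3 and 314 ± 25.1 CPM. The 8 B lineage markers were all below 0 with 0 passing and a median of -0.074, and Pax5 was at -0.018. The 7 T cell markers were all above 0, with 0 passing and a median of 0.12. These counts were not the same in every fit: without WT replicate 3, 6 of the 8 B lineage and 4 of the 7 T cell markers kept those signs, with medians of -0.042 and 0.072. With B lineage scaling 7 of 7 T cell markers kept theirs. That scaling also moved the median over all tested genes up, from -0.0029 to 0.053. It divides by the sum of the same 8 B lineage markers and so centres them near 0. Signs under it (5 of 8 B lineage markers below 0) therefore say nothing about how stable either list is. The B lineage median was also -0.031 without WT replicate 2 (5 of 8 below 0), -0.040 without Top3b-KO replicate 1 (6 of 8) and -0.13 without WT replicate 1 (8 of 8).

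In the Notch pathway around Notch2, 44 genes in 4 lists were considered and 41 tested, of which 0 passed in either direction, 20 being above 0 and 21 below. Among ligands and other receptors the most abundant were Notch1, at 165 ± 26.8 CPM in WT libraries and 173 ± 9.88 CPM in knockout libraries (SD, n = 3), and Notch4, at 12.3 ± 1.44 and 10.4 ± 1.08 CPM. Dll1, the ligand for Notch2 in the spleen, was at 2.64 ± 0.285 and 2.56 ± 0.451 CPM. Dll4 had too few counts to be tested, at 3 to 23 per library.

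Among genes that process ligand and receptor, 17 tested with a median of -0.010, Neurl3 was at 244 ± 12.1 and 248 ± 9.72 CPM in the WT and Top3b-KO libraries, and Adam10 at 190.2 ± 11.0 and 203 ± 5.25 CPM. The fringe genes Lfng and Mfng, whose products add sugars to Notch and tune its response to Delta ligands, had log2 fold changes of -0.11 and -0.058. The nuclear partners and inhibitors had a median of 0.049 over 11 genes, with Rbpj at 0.075 and Spen, which competes with Notch for RBPJ, at 0.012. Of the Notch targets and other Deltex genes, 7 of 9 were tested, with a median of -0.11. Hes1 was at 38.4 ± 1.57 and 35.3 ± 2.72 CPM and the related Dtx3l at 142 ± 10.4 and 157 ± 3.79 CPM, while Hes5, another Notch target, was at 0.775 ± 0.248 and 0.580 ± 0.215 CPM (SD, n = 3).

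Among partners of the remaining members, 0 genes passed in any list. Among 10 sphingosine 1-phosphate genes the median log2 fold change was -0.087. S1pr1, the receptor that opposes follicular homing and keeps marginal zone cells at the blood side, was at 327 ± 10.1 CPM in WT libraries and 346 ± 22.6 CPM in knockout libraries, and Sgpl1, the lyase that degrades the lipid, at 104 ± 0.973 and 101 ± 1.93 CPM (SD, n = 3). Per kilobase, S1pr1 stood at 107 ± 3.31 CPM in WT beside 4.84 ± 0.816 for S1pr3. Among 7 genes of CD1d presentation the median was -0.024, with Psap, which encodes the lipid-loading saposins, at -0.086 and B2m, the light chain of CD1d, at -0.050.

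The 10 tetraspanins and CD9 partners had a median of -0.11, and 9 of them were below 0. Cd37 was at 684 ± 19.8 and 627 ± 20.4 CPM, Cd53 at 323 ± 46.1 and 343 ± 21.9 CPM, and Cd81, part of the B cell coreceptor, at 83.6 ± 1.87 and 78.6 ± 3.37 CPM (SD, n = 3, WT and Top3b-KO). Of 5 other ferlins, 2 were tested, Fer1l5 at -0.040 and Dysf at 0.044. The 6 partners and substrates of the ASB2 ligase had a median of 0.023, with Flna, the abundant filamin, at -0.010 and Cul5 at 0.15 (SE 0.081, adjusted p 0.915 by edgeR).

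**Figure D4:**
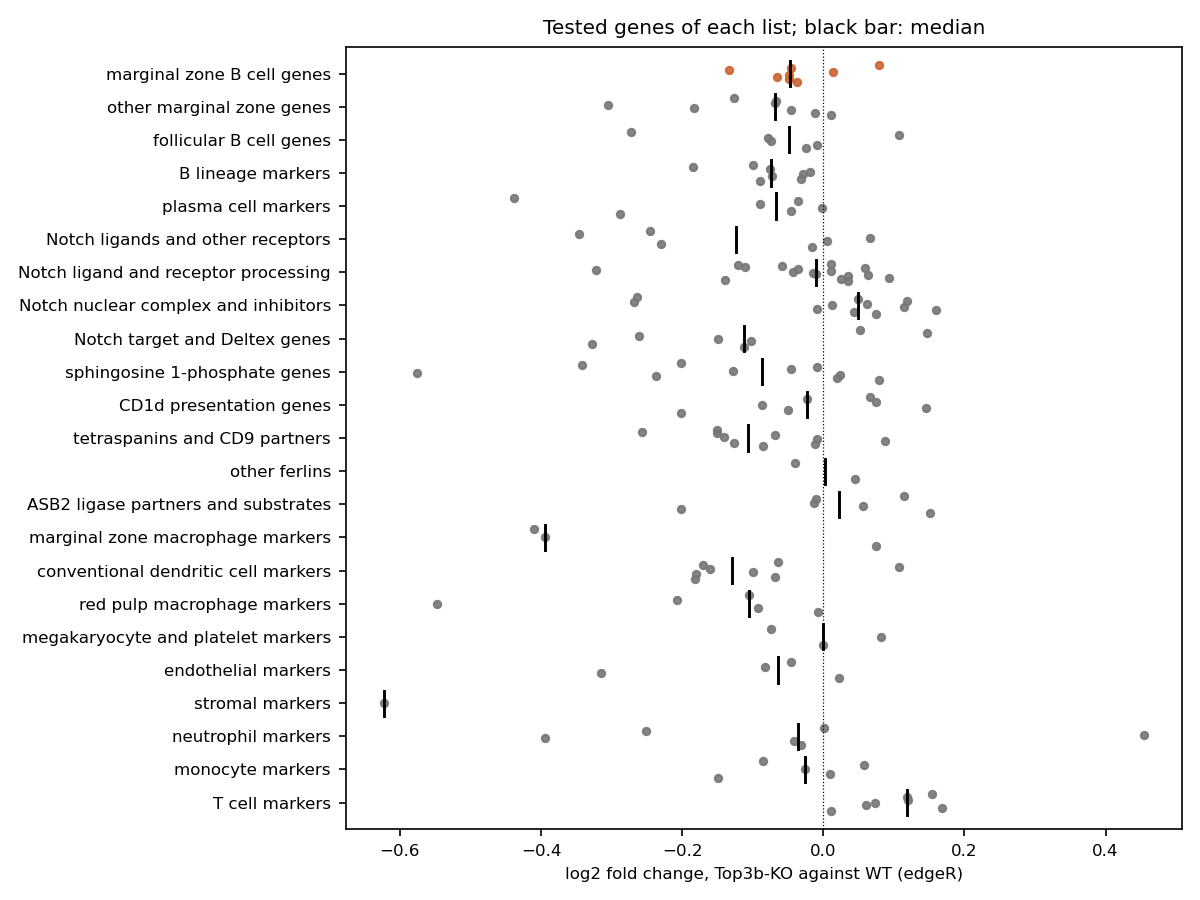
Log2 fold change of every tested gene in the marginal zone set (orange) and in 22 lists of related genes and cell type markers (grey), with each list's median as a black bar. The 8 orange points lie between -0.13 and 0.079; 0 points in any row passed the edgeR test after adjustment over all genes.

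Several members are also made by other cells, so markers of those cells were measured beside them. Conventional dendritic cell markers, 8 of 8 tested, summed to 178 to 197 CPM in WT libraries and 162 to 179 CPM in knockout libraries. Of their most abundant members, Itgax was at 102 ± 5.87 and 90.1 ± 4.47 CPM and Flt3 at 30.7 ± 2.83 and 26.8 ± 3.42 CPM (SD, n = 3). Marginal zone macrophage markers, 3 of 4 tested, summed to 16.9 to 22.6 CPM in WT libraries and 13.4 to 16.6 CPM in knockout libraries, with Cd209b at 2 to 11 counts per library. Red pulp macrophage markers summed to 367 to 437 and 319 to 384 CPM. Megakaryocyte and platelet markers, 3 of 7 tested, summed to 89.2 to 94.5 and 93.8 to 102 CPM, most of it Itgb3, while Pf4 had 0 to 9 counts per library and Ppbp 0 to 3.

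Endothelial markers summed to 254 to 283 CPM in WT libraries and 264 to 280.2 CPM in knockout libraries, mostly Pecam1, which leukocytes also express, with Emcn at 0 to 3 counts. Plasma cell markers summed to 456 to 543 and 405 to 547 CPM, monocyte markers to 331 to 368 and 328 to 355 CPM, and neutrophil markers to 431 to 733 and 308 to 954 CPM. The neutrophil sum of 954 CPM was that of Top3b-KO replicate 3, the other knockout libraries being at 308 and 442 CPM. None of these lists had a marker with 0 counts in all 6 libraries. Their part in the marginal zone values was not tested. Over the 22 lists, 146 of 164 genes were tested, 0 were called by edgeR, and 12 (8.22%) had an unadjusted p under 0.05, beside 5.52% of all genes.

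The genes whose levels ran most closely with each member over the 6 libraries were sought among 9096 genes of at least 10 CPM, leaving out predicted-gene symbols (Gm with digits, or ending in Rik) and the members themselves. By Pearson's r of log2 CPM, given as a description with no test, the closest were Zkscan3 (0.997) and Spic (0.994) for Cd1d1, Zfand1 (0.997) and Elp5 (0.967) for Cd9, Leng9 (0.984) for Dtx1, and Ptcd1 (0.990) and Tubb5 (0.988) for S1pr3. They were Kremen1 (0.993) and Ddit3 (0.987) for Myof, Mon2 (0.991) and Kcnk6 (0.984) for Asb2, Cdk7 (0.995) and Kif11 (0.983) for Tm6sf1, and Snrnp200 (0.994) and Ccdc9 (0.986) for Notch2. Over all such genes the median best r was 0.992, so likeness of this size is what a typical gene reaches with 6 libraries. Depth and cell mixture are common to all genes of a library, and their part in these r values was not tested.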

How the data were processed

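The deposited values are expected counts, 1 row for each gene symbol and 1 column for each of 6 libraries. Per the submitters' processing notes, STAR and mm39 were used. Counting tool, strand setting and annotation release were not given in the sources used here. Of the symbols, 72 had values that were not whole within 1e-06, and all were rounded. Per the labels' protocols, 2 kits and sequencers are described, so the preparation of each library is not settled.

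Genes were kept by filterByExpr and tested by edgeR's quasi-likelihood test (R 4.3.3, edgeR 4.0.16) with TMM scaling, robust dispersion and genotype as the only term, two-sided, Benjamini-Hochberg adjusted, at a threshold of 0.05. CPM are TMM-scaled, and log2 CPM add a prior count of 1. DESeq2 1.42.0, limma-voom (limma 3.58.1), other scalings and filters, a replicate block and leaving out each library were the alternatives. The test was tested on simulated data. Intervals are 95% and not adjusted.

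Members and lists were chosen with earlier results of these data known. Named genes were the members, the 2 most abundant tested genes of a list described, named partners or paralogs, and for likeness the 2 genes of highest r. Any other named gene was chosen after its values were seen. A few genes that this rule names are not reported here. Annotation (GENCODE M21) and promoters (RefSeq, GRCm38.p6) differ from the build of the counts and were matched by symbol; 6 of 8 members had a promoter entry.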

Additional observations from a re-analysis of the deposited data

How the results depend on the processing

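All 8 marginal zone genes missed the threshold under all 15 alternatives, with adjusted p from 0.402 to 1. Asb2 stayed below 0 and Notch2 above 0 in all 15. Scaled to the summed B lineage markers, Cd1d1 (0.010), Cd9 (0.0085) and Tm6sf1 (0.0051) turned to values above 0. The median over all tested genes rose as well, from -0.0029 to 0.053. Leaving out 1 library gave log2 fold changes of -0.073 to 0.013 for Cd1d1, -0.11 to 0.025 for Cd9, -0.19 to 0.015 for Dtx1, -0.18 to 0.034 for S1pr3, -0.086 to 0.068 for Myof, -0.23 to -0.016 for Asb2, -0.089 to -0.014 for Tm6sf1 and 0.024 to 0.14 for Notch2. The members' median was then -0.079 (without WT replicate 3) to 0.0070 (without WT replicate 1), and 0.0068 scaled to B lineage markers. The cause was not tested.

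Over all genes the main test called 1 higher and 1 lower. Higher and lower calls numbered 2 and 4 with DESeq2, 8 and 36 with no filter on low counts, and 0 and 1 with limma-voom, robust=FALSE or B lineage scaling. Leaving out 1 library gave 0 to 6 higher and 1 to 26 lower, the most without WT replicate 3. With the replicate block there were 8 higher and 33 lower, and the lowest adjusted p of a member was 0.794. The deviations from the genotype means of WT and knockout libraries with the same number had correlations of 0.151, -0.0056 and 0.0065, and only replicate 1 was closest to its namesake, so the numbers were not taken to pair the libraries. The shallowest library was Top3b-KO replicate 3, with 0.303 CPM for 3 counts. Such floors cover counting error only.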

Other observations

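Among the 146 tested genes of the surrounding lists, edgeR gave 9 lower and 3 higher genes at an unadjusted p under 0.05, none of which passed after adjustment. Those given with values here were chosen after their values were seen. The other lower genes were Blk, Spns2, Nr1h3 and Itgax. Klf2, a transcription factor of lymphocyte homing that limits the marginal zone pool, was at 316 ± 17.6 CPM in WT libraries and 262 ± 34.9 CPM in knockout libraries (SD, n = 3), with an edgeR log2 fold change of -0.27, an unadjusted p of 0.0044 and an adjusted p of 0.67. S1pr4, a lymphocyte receptor for sphingosine 1-phosphate, was at 98.7 ± 8.52 and 83.8 ± 4.76 CPM (adjusted p 0.69 by edgeR). Plac8, listed with the marginal zone genes, was at 110.4 ± 16.3 and 89.2 ± 8.53 CPM (adjusted p 0.76 by edgeR). Dtx3, a relative of Dtx1, was at 36.3 ± 2.54 and 30.2 ± 3.14 CPM (adjusted p 0.83 by edgeR). Hmox1, a heme-degrading enzyme listed with red pulp macrophages, was at 64.0 ± 11.8 and 43.4 ± 7.87 CPM (adjusted p 0.776 by edgeR). The 3 higher genes were Dtx3l, another Deltex relative, at 142 ± 10.4 and 157 ± 3.79 CPM, Maml2, a mastermind-like coactivator, at 65.0 ± 4.08 and 72.7 ± 3.32 CPM (both with an adjusted p of 0.886 by edgeR), and Cd3e, part of the T cell receptor complex, at 155 ± 5.38 and 174 ± 5.27 CPM (adjusted p 0.829 by edgeR). The genotypes did not overlap for 10.3% of the list genes, beside 11.0% of all tested genes.

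WT replicate 3, low for Dtx1, S1pr3 and Myof, also had the lowest level of Notch1, at 137 CPM beside 162 to 190.1 CPM in the other 5 libraries. Other Notch pathway genes went the other way: Hes1, at 39.6 CPM, and Rbpj, at 68.7 CPM, were highest in WT replicate 3. The Cr2 level of WT replicate 3, 534 CPM, was also the highest of the 6, and its B lineage sum was 4062 CPM. These genes were chosen after their values were seen, and the cause was not tested.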
